A study of Mus musculus with 53 samples.

Results

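Alternative polarization of mouse macrophages by 24 h of interleukin-4 (IL-4) was examined in bone marrow-derived macrophages (BMDMs) of wild-type (WT) mice. The samples labelled as WT with IL-4 for 24 h (n = 3, replicates 2, 3 and 4) were compared with the samples labelled as WT control at 24 h (n = 4, replicates 1 to 4), which make 7 of the 53 samples of the series. Expression was read as FPKM, which counts sequenced fragments relative to transcript length and library size, from RNA-seq of polyadenylated RNA, and a locus entered the comparison if it reached 1 FPKM in at least 1 of the 7 samples. This left 10715 of 23847 loci, of which 230 reached 1 FPKM only in IL-4 samples and 464 only in control samples. Replicate 1 of WT with IL-4 for 24 h was not analysed here.

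The study followed WT and Stat6-/- BMDMs through a time course of IL-4 to separate genes that the cytokine induces from genes that it represses. All cells came from mice of 8 to 12 weeks on the C57BL/6 background, were differentiated for 6 days in medium with L929 cell supernatant as the source of M-CSF, and received 20 ng/ml IL-4 or no cytokine. Stat6-/- mice lack the gene in every cell of the body and not in macrophages alone. Replicates were described as individual animals, but the labels do not tie a replicate number to an animal. The p-values of the main fit measure only the spread between samples within groups, estimated for each locus over all 53 samples of the series.

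IL-4 binds a receptor made of the IL-4 receptor alpha chain with the common gamma chain or with the IL-13 receptor alpha 1 chain, and Janus kinases at the receptor phosphorylate the transcription factor STAT6, which enters the nucleus. Macrophages exposed to IL-4 take on the alternative state known from worm infection, allergy and tissue repair, which is recognized by the secreted protein encoded by Retnla, by arginase 1 and by chitinase-like proteins. They can also fuse into multinucleated giant cells, a process that needs the membrane proteins encoded by Ocstamp and Dcstamp.

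Promoter sequence is shown first for the loci with the largest changes, marked for 2 motifs that bear on IL-4 and on the interferon-stimulated genes described further on. The STAT6-type motif was TTC and GAA with any 4 bases between them, the spacing that STAT6 prefers, and the interferon-type motif was 2 copies of GAAA with any 2 bases between them, the core of the element through which type I interferons act. Both were searched on both strands in windows of 250 bases before to 50 bases after each annotated start (RefSeq, GRCm38.p6), and matches of different motifs may overlap. Of the 30 loci with the 15 largest increases and the 15 largest decreases, 21 had a window, and 7 of these held a match. The 250 bases before the start are printed for 6 of them, 5′ to 3′ on the strand of the gene, with the matches in capitals. In the remaining one, Ms4a6b, which fell with IL-4, a STAT6-type match did not lie within these 250 bases. The printed loci with the STAT6-type motif were Retnla (chr16:48842359-48842608, plus strand), Tmem26 (chr10:68723496-68723745, plus strand) and Itgax (chr7:128129300-128129549, plus strand), and the level of each rose with IL-4.
Retnla: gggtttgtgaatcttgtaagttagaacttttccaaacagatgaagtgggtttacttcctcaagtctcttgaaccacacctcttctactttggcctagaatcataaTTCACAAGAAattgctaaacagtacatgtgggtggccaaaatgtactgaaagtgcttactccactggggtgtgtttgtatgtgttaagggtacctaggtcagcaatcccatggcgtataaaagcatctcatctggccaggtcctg
Tmem26: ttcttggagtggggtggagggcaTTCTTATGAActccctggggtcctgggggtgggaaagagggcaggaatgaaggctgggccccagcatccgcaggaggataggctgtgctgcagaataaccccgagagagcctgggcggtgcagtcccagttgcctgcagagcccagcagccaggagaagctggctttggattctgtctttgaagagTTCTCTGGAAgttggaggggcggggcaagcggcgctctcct
Itgax: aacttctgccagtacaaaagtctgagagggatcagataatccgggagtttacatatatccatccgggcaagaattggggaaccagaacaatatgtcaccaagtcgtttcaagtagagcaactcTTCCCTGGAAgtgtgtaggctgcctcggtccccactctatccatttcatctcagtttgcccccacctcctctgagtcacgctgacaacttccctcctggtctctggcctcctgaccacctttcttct

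The loci with the interferon-type motif were Ifit3 (chr19:34583279-34583528, plus strand), its neighbour Ifit3b (chr19:34607707-34607956, plus strand, listed in the files as I830012O16Rik) and Cxcl10 (chr5:92348890-92349139, minus strand), and the level of each fell with IL-4. Ifit3 and Ifit3b carry the same pair of matches in nearly the same surrounding bases, and 51.2% of the 50-base stretches of the Ifit3 transcripts also occur in transcripts of another gene, so reads of both genes cannot be assigned with certainty.
Ifit3: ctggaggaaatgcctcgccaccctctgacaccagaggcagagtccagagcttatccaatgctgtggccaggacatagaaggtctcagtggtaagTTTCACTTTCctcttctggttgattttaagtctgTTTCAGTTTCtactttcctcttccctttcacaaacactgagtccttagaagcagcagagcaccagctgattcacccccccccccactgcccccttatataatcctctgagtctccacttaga
Ifit3b: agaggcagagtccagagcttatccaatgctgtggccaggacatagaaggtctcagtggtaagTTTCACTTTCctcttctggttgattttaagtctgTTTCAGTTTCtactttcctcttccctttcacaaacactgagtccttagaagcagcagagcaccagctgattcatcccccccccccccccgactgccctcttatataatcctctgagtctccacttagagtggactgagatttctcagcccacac
Cxcl10: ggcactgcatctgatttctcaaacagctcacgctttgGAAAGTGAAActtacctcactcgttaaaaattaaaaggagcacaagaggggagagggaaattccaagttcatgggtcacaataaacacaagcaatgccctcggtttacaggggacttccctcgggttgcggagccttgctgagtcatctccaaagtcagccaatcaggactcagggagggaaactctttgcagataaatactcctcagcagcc

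Across whole groups the interferon-type motif was found in 10.9% of 531 windows of loci called down and in 2.03% of 444 windows of loci called up, against 3.3% of 10919 windows of all tested loci and 3.44% of all 32851 windows. It stood in 13 of 26 windows of the type I interferon-stimulated genes that were called down. Of these 26 windows 19.2% held the STAT6-type motif, 15.4% the related STAT motif and 26.9% the AP-1 type motif described next. The share among interferon-stimulated genes not called was not computed, so this count cannot be tied to the decrease. The STAT6-type motif was found in 7.43% of windows of loci called up and 7.53% of windows of loci called down, against 5.56% for all tested loci and 6.95% for all windows. The related STAT motif TTCNNNGAA was found in 6.31% of windows called up, 7.16% of windows called down and 6.79% of windows tested (all windows, 8.3%). The AP-1 type motif TGANTCA was found in 9.23% of the windows of either called group and in 5.12% of those tested (all windows, 7.81%). A window was found for 8588 of 10675 tested symbols, the match of a short motif is no binding site by itself, and these shares are given as descriptions without a test.

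A locus was called when its adjusted p was below 0.05 (limma, over all tested loci) and its mean differed at least 2-fold, on the scale log2(FPKM + 1). By this rule 436 loci were called up (4.07% of those tested) and 511 were called down (4.77%), in all 8.84%. The median log2 difference was 1.42 for loci called up and -1.34 for loci called down. Large changes on this scale were more often increases. Of the called loci 104 rose and 83 fell at least 4-fold, 33 rose and 19 fell at least 8-fold, and 12 rose and 3 fell at least 16-fold. Loci called up had a median level of 5.1 FPKM in control and 21.09 FPKM in IL-4. Loci called down had a median of 15.77 FPKM in control and 4.82 FPKM in IL-4 (median of all tested loci in control, 10.13 FPKM). The calls were made from these same values, so these medians describe the calls and are no separate result. In bulk RNA, fewer cells that express a gene and less of its RNA per cell cannot be told apart. Of the called loci 80 rose from below 1 FPKM in every control, 63 fell below 1 FPKM in every IL-4 sample, and 425 of those called up and 488 of those called down were annotated as protein coding.

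**Figure D1:**
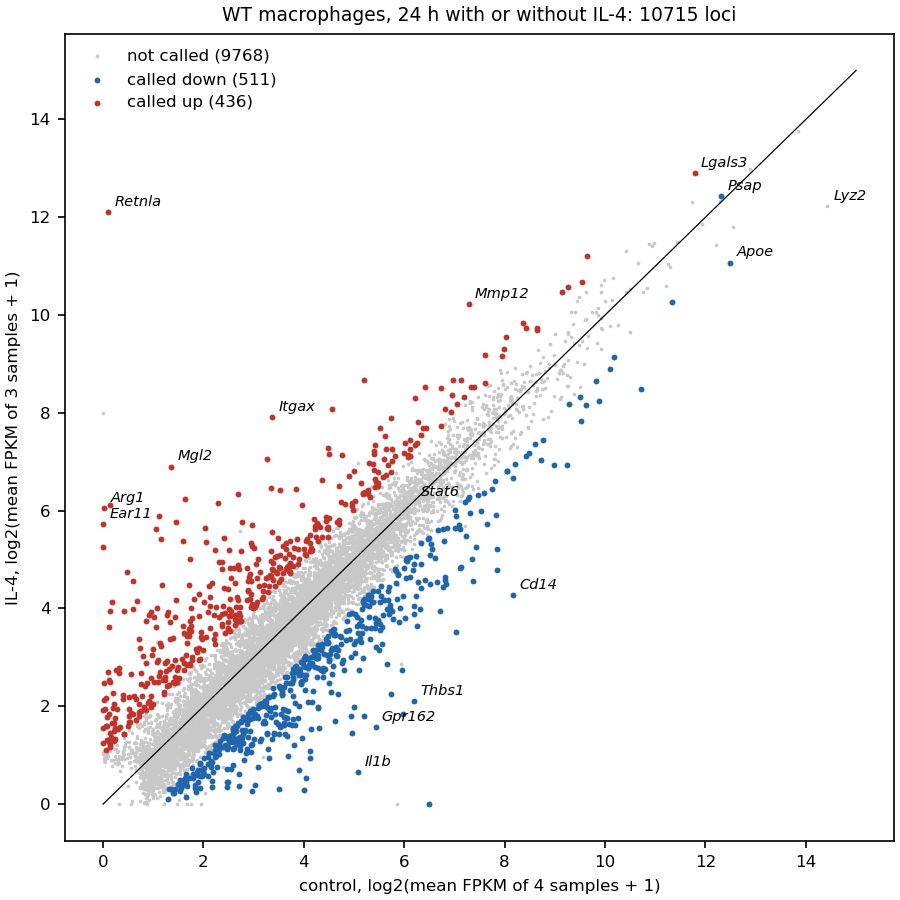
Mean expression of 10715 loci in WT macrophages after 24 h, control (x axis) against IL-4 (y axis), both as log2(mean FPKM + 1); red points are the 436 loci called up, blue points the 511 called down, and grey points the others, and the line marks equal levels. Retnla lies far above the line at the left edge with a control level near 0, whereas Apoe (blue) and Lyz2 (grey, not called) lie below it at the upper right, among the highest levels of all. Psap lies near the line in blue because 1 IL-4 sample lists it at 0.

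Many loci moved by less than the fold required. Every IL-4 sample lay above every control for 3011 loci (28.1%) and below every control for 3984 loci (37.2%), and 6038 loci (56.4%) had an adjusted p below 0.05 at any fold. The median log2 difference over all tested loci was -0.07. Correlations of log2 values between samples were 0.985 to 0.994 within the groups and 0.918 to 0.943 between them. Of 947 called loci, 942 had groups that did not overlap. The other 5 were Psap, Camp, Gm12191, Snora65 and Snora69, named after their values were seen, and in 4 of these 5, Camp excepted, at least 1 sample was listed at or near 0.

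The 7 libraries were alike, with 10017 to 10285 loci at 1 FPKM or more and a relative depth of 0.846 to 1.176 times the median of the series. The number of reads is unknown, since FPKM alone was used. The sum of FPKM was lower in control replicate 2 (396441.2) than in the other controls (433666.7 to 440959.4). The gene Psap, for the lysosomal protein prosaposin, was listed at 7405, 0 and 9102 FPKM in the IL-4 samples and at 5029, 4050.3, 5196 and 6077 FPKM in the controls. It was called down only because of the value of 0 in replicate 3, and without that sample the log2 difference was 0.71.

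Of the 4 genes taken as markers of the response, Retnla, Arg1 and Ocstamp rose and Il1b fell. In all values per sample, IL-4 samples are given in the order of replicates 2, 3 and 4, and controls in the order of 1 to 4. Retnla (mm10 chr16:48842552-48844461), which encodes the secreted resistin-like molecule alpha, was listed at 3441, 5041 and 4762 FPKM in the IL-4 samples and at 0, 0, 0.0723 and 0.227 FPKM in the controls (log2 difference with its standard error 11.99 ± 0.31, adjusted p = 2.1e-28). It was the locus with the largest difference and held 0.803% to 1.22% of all FPKM in the IL-4 samples. Arg1 (mm10 chr10:24915207-24927470), the arginase that splits arginine into ornithine and urea, was at 99.3, 56.8 and 40.2 FPKM with IL-4 and at 0.0217, 0.0182, 0.0211 and 0 FPKM without. Ocstamp (mm10 chr2:165395450-165400394), a membrane protein of cell fusion, was at 104, 47.5 and 55.1 FPKM with IL-4 and at 0.0785, 0.120, 0.0914 and 0.130 FPKM without. IL-4 replicate 2 was the highest IL-4 sample for both Arg1 and Ocstamp, and in none of the 3 genes did the groups overlap. The log2 differences were 5.93 ± 0.18 for Arg1 and 5.90 ± 0.16 for Ocstamp. Il1b (mm10 chr2:129364580-129371120), the precursor of the fever cytokine IL-1 beta, went the other way, with 0.680, 0.290 and 0.756 FPKM in IL-4 samples and 48.9, 28.6, 34.6 and 19.6 FPKM in controls (log2 difference -4.37 ± 0.66, adjusted p = 6.4e-07). Stat6 itself was level, with 73.1, 67.7 and 73.0 FPKM in IL-4 samples and 73.7, 70.8, 74.5 and 73.3 FPKM in controls, and the groups overlapped.

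Next to these, the largest increases were of secreted, surface and regulatory proteins. Mgl2, a lectin that binds galactose-type sugars, was at 130.0, 118 and 107 FPKM with IL-4 and 0.933, 1.33, 1.46 and 2.49 FPKM without (log2 difference 5.58 ± 0.38), although 13.1% of its 50-base stretches also occur in other transcripts, most in those of Clec10a. Ear11, a secreted ribonuclease first known from eosinophils, was at 33.4, 58.7 and 63.9 FPKM with IL-4 and listed at 0 in all 4 controls, so no fold is given. Its relative Ear2, which shares 41.5% of its 50-base stretches with other genes, was at 27.2, 51.7 and 46.9 against 1.21, 1.11, 1.40 and 1.23 FPKM. Il4i1, a secreted amino acid oxidase, was at 86.4, 45.3 and 44.3 against 1.86, 1.26, 0.905 and 0.588 FPKM, and 83.9% of its exon bases overlap the gene Tbc1d17 on the opposite strand, from which reads without strand cannot be told apart. These genes were below 3 FPKM in every control and above 25 FPKM in every IL-4 sample.

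Itgax, the CD11c integrin chain, was at 288, 208 and 225 FPKM with IL-4 and 6.79, 6.08, 7.63 and 16.8 FPKM without (log2 difference 4.64 ± 0.57), with control replicate 4 above the other 3. Lrrc32, which holds latent TGF-beta at the cell surface, was at 29.4, 22.5 and 26.1 against 0.204, 0.156, 0.212 and 0.998 FPKM, and again control replicate 4 was the highest. Tmem26, a membrane protein, was at 48.7, 51.6 and 45.0 against 1.18, 1.03, 1.10 and 0.961 FPKM. The groups did not overlap in any of these. Ccl22, a chemokine that attracts T cells with the receptor CCR4, was at 75.5, 42.2 and 42.7 against 2.79, 1.81, 1.61 and 0.694 FPKM, and Flt1, a receptor of vascular endothelial growth factor, was at 24.9, 12.5 and 12.4 against 0.103, 0.120, 0.126 and 0.158 FPKM. Both rose from below 3 FPKM in every control, and IL-4 replicate 2 was the highest sample for both.

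**Figure D2:**
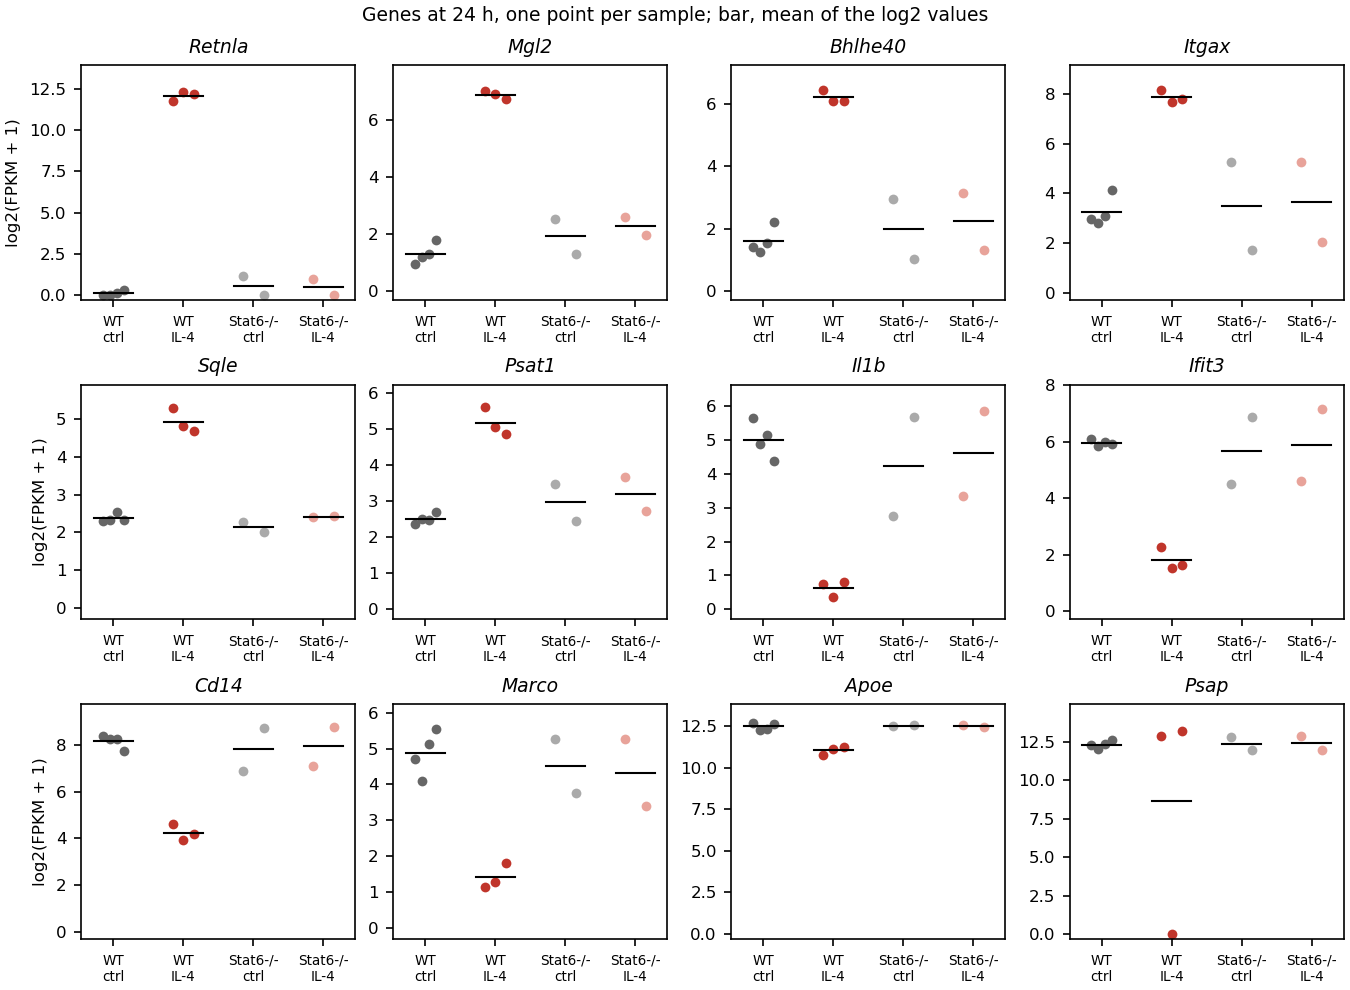
Expression of 12 genes at 24 h as log2(FPKM + 1) on the y axis, one point for each sample of WT control (n = 4), WT with IL-4 (n = 3), Stat6-/- control (n = 2) and Stat6-/- with IL-4 (n = 2); the bar is the mean of the log2 values. In WT the IL-4 points stand apart from the control points in every panel but Psap, where the point at 0 is IL-4 replicate 3, and in Stat6-/- the spread between replicates is often larger than the shift with IL-4.

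The largest decreases after Il1b included several receptors for microbes and their products. Cd14, the surface receptor that passes lipopolysaccharide to TLR4, was at 23.4, 14.4 and 17.3 FPKM with IL-4 and 331, 301, 302 and 209 FPKM without (log2 difference -3.90 ± 0.36, adjusted p = 1.2e-11). Thbs1, the matrix protein thrombospondin 1 that can activate TGF-beta, was at 4.21, 2.62 and 3.12 against 65.1, 54.9, 82 and 87.2 FPKM (-4.08 ± 0.20). Marco, a scavenger receptor for bacteria and particles, was at 1.2, 1.45 and 2.52 against 25.2, 16.2, 33.7 and 45.9 FPKM (-3.46 ± 0.32). No IL-4 sample reached the lowest control in any of the 3. Fpr2, a receptor for formylated peptides, was at 0.596, 0.708 and 0.559 against 20.5, 12.5, 13.9 and 9.06 FPKM, and 31.5% of its 50-base stretches also occur in other transcripts. Nfkbiz, a nuclear partner of NF-kappaB, was at 0.936, 0.763 and 1.03 against 19.6, 16.6, 17.8 and 11.5 FPKM. Both fell from over 9 FPKM in every control to about 1 FPKM or less.

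Other large decreases were of genes with other or less known roles. The orphan receptor gene Gpr162 was at 1.77, 1.53 and 2.63 FPKM with IL-4 and 48.3, 39.4, 39.7 and 40.8 FPKM without (-3.87 ± 0.20), and Emr4, a member of the F4/80 family of adhesion receptors, was at 0.137, 0.218 and 0.315 against 15.2, 13.9, 15.9 and 15.5 FPKM. Marcksl1, a protein that binds actin and membrane, was at 6.38, 4.47 and 6.35 against 65.2, 50.5, 69.5 and 59.1 FPKM. These 3 were called down in every alternative analysis. Ctla2b, a protease inhibitor gene that shares 69.0% of its 50-base stretches with other transcripts, was at 2.79, 2.32 and 2.35 against 42.4, 41.5, 32.5 and 27.1 FPKM, and Ms4a6b was at 11.0, 9.36 and 10.9 against 153, 132, 123 and 110.3 FPKM.

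**Figure D3:**
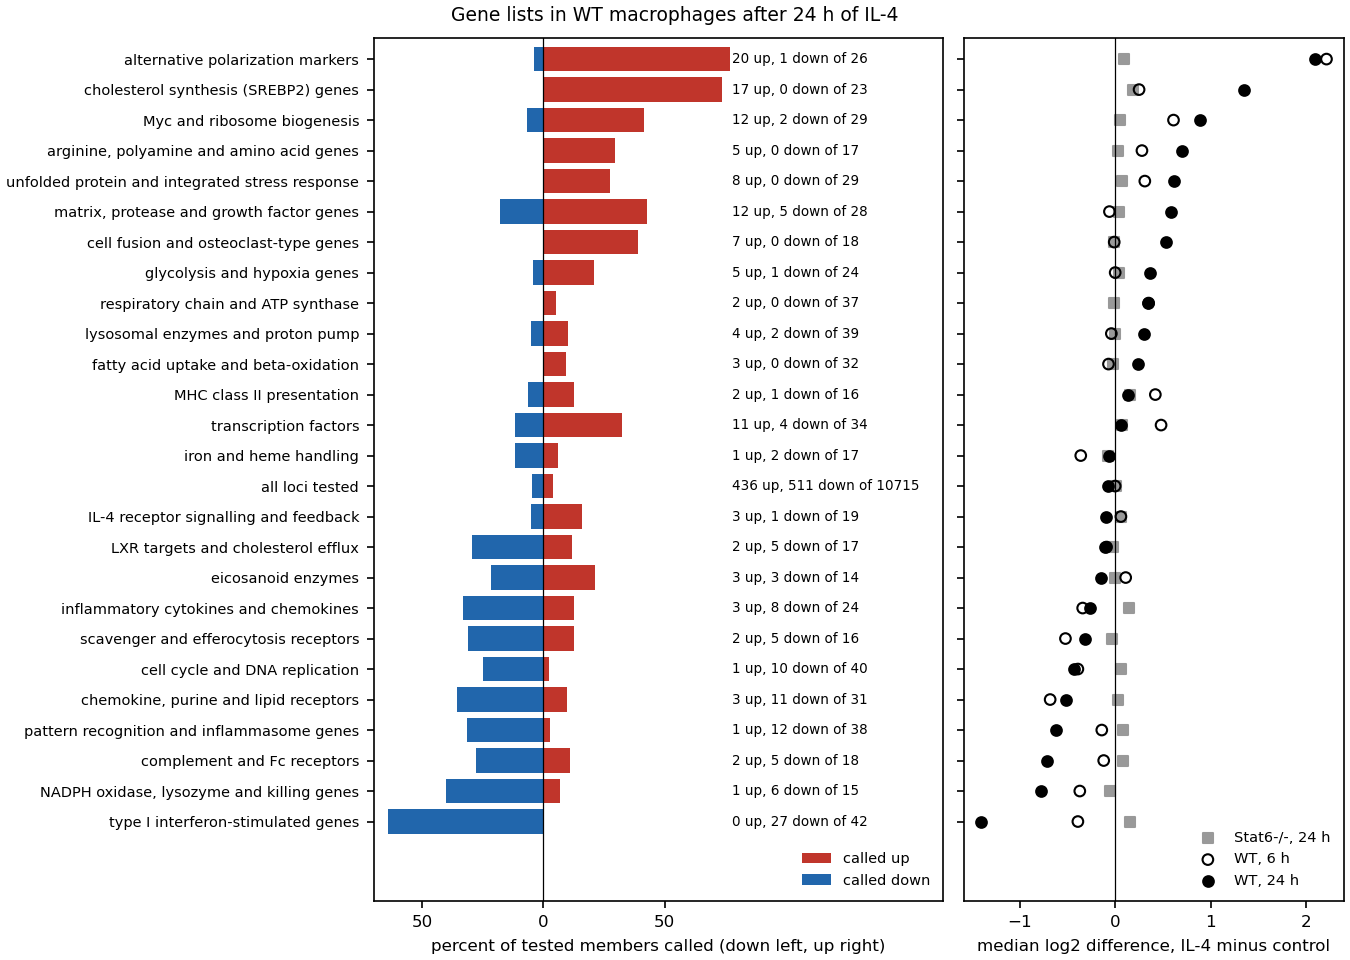
Calls and medians of 25 gene lists and of all loci tested, ordered by their median in WT at 24 h; bars (left) give the percent of tested members called up (red, to the right) and down (blue, to the left), and points (right) give the median log2 difference between IL-4 and control in WT at 24 h (filled), WT at 6 h (open) and Stat6-/- at 24 h (grey squares). The alternative polarization and cholesterol synthesis lists stand at the top with 20 of 26 and 17 of 23 members up, and the type I interferon-stimulated genes at the bottom with 27 of 42 down, while the medians in Stat6-/- lie near 0.

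Gene lists of pathways were read beside the shares of all loci (4.07% up, 4.77% down, median -0.07), as counts and medians without a test of the list. Over all 10715 loci, 4690 had a log2 difference above 0 and 6025 had one below 0. Of 26 tested alternative polarization markers, 20 were called up and 1 was called down, with a median log2 difference of 2.09; the list was chosen by its known response. Besides the genes above it held Cish and Socs1, which block signalling from cytokine receptors. Cish was at 15.1, 16.7 and 18.6 FPKM with IL-4 and 0.758, 0.346, 0.694 and 0.612 FPKM without (3.48 ± 0.15), and Socs1 was at 14.1, 15.2 and 15.1 against 0.682, 0.501, 0.559 and 0.341 FPKM (3.38 ± 0.29). Both stood apart by more than 10 FPKM in every sample. Clec7a, the beta-glucan receptor dectin-1, rose from 65.7, 70.5, 65.9 and 91.1 to 320.1, 308 and 313 FPKM. The receptor genes of the pathway moved less. Of 19 tested genes of IL-4 receptor signalling and feedback 3 were called up, all of them feedback inhibitors (Cish, Socs1 and Socs2), and only Il13ra1, for the IL-13 receptor alpha 1 chain, was called down, from 4.99, 4.25, 4.87 and 5.47 to 1.47, 1.47 and 1.83 FPKM. The common gamma chain gene Il2rg was at 140.0, 110.0 and 120.3 FPKM with IL-4 and 163, 134, 149 and 121 FPKM without and was not called. Of its 50-base stretches 27.5% also occur in other transcripts.

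Genes of cell fusion and of the osteoclast followed Ocstamp in part. Of 18 tested members 7 were called up and none down, with a median of 0.53. Dcstamp, the partner of Ocstamp in fusion, was at 108, 68.7 and 82.9 FPKM with IL-4 and 5.75, 7.18, 8.78 and 14.8 FPKM without, and Atp6v0d2, a subunit of the proton pump that is also needed for fusion, was at 392, 421 and 407 against 23.4, 25.3, 31.2 and 62.5 FPKM. Control replicate 4 was the highest control for both genes, and the groups did not overlap. The integrin gene Itgb3 rose from 2.63, 3.23, 3.05 and 3.23 to 17.9, 15.8 and 15.9 FPKM. Ctsk, for the collagen-cutting cathepsin K, was at 14.6, 25.2 and 31.0 FPKM with IL-4 and 5.38, 3.84, 8.49 and 12.0 FPKM without, and its call was lost in 4 of the fits that leave out 1 sample or change the test. Trem2 and its adaptor Tyrobp, among the most abundant members, were not called, with 796, 754 and 736 against 857, 773, 798 and 811 FPKM for Trem2.

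Among 34 tested transcription factors, 11 were called up and 4 down. Bhlhe40, a basic helix-loop-helix repressor, was at 86.2, 68.2 and 67.8 FPKM with IL-4 and 1.62, 1.35, 1.92 and 3.59 FPKM without (4.63 ± 0.34). Egr2, a zinc finger factor induced early by IL-4, was at 158, 119 and 121 against 5.77, 6.22, 7.95 and 14.3 FPKM (3.88 ± 0.54), and Irf4, which drives part of the alternative programme, was at 17.7, 11.5 and 11.6 against 0.781, 0.976, 0.842 and 0.892 FPKM (2.94 ± 0.14). In all 3 the lowest IL-4 sample was several-fold above the highest control. Batf3 rose from 7.71, 5.57, 6.44 and 7.38 to 51.6, 49.0 and 53.1 FPKM and Myc from 4.38, 5.39, 4.99 and 5.50 to 29.9, 27.4 and 24.5 FPKM. Pparg, the nuclear receptor for fatty acids, rose from 35.5, 37.6, 37.5 and 30.1 to 83.9, 80.0 and 77.5 FPKM. The gene of the macrophage lineage factor PU.1, listed as Sfpi1, was at 262, 225 and 229.5 FPKM with IL-4 and 243, 210.2, 235 and 217 FPKM without, and the groups overlapped.

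Some arginine and polyamine genes rose with Arg1. Of 17 tested members of the list 5 were called up and none down (median 0.7). Slc7a2, a carrier that brings arginine into the cell, was at 17.6, 13.7 and 12.3 FPKM with IL-4 and 0.0947, 0.110, 0.0948 and 0.125 FPKM without (3.80 ± 0.08, adjusted p = 4.8e-31). Srm, the spermidine synthase, was at 26.6, 25.1 and 23.9 against 6.30, 5.13, 7.24 and 7.86 FPKM. Oat, which turns ornithine towards proline, was at 46.5, 44.7 and 47.4 against 44.8, 43.7, 46.5 and 45.5 FPKM and was not called.

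Proteases, growth factors and coagulation factors also rose in part, with 12 of 28 tested members called up and 5 down (median 0.58). Coagulation factor X, the product of F10, was at 77.7, 60.5 and 72.3 FPKM with IL-4 and 3.17, 2.30, 3.54 and 6.48 FPKM without, and factor VII, the product of F7, was at 34.5, 27.7 and 31.7 against 1.51, 1.38, 1.76 and 4.67 FPKM. Both genes lie side by side on chromosome 8, next to Mcf2l, which was also called up. Mmp12, the macrophage elastase, was at 1208, 1105 and 1252 FPKM with IL-4 and 94.6, 114, 124 and 286 FPKM without, and Mmp13, a collagenase, was at 47.4, 34.5 and 31.9 against 5.13, 8.40, 6.10 and 7.55 FPKM. Control replicate 4 was again highest for F10, F7 and Mmp12, without overlap of the groups, and Mmp12 was not called by Tukey's test. Vegfa, for the main vascular growth factor, fell from 19.1, 17.9, 18.4 and 18.9 to 10.8, 5.58 and 5.36 FPKM. The abundant growth factor gene Igf1 was at 354, 404 and 393 against 228, 264, 256 and 244 FPKM, which did not reach 2-fold.

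Genes of cholesterol synthesis rose together. Of 23 tested targets of the sterol-sensing factor SREBP2, 17 were called up, none was called down, and all 23 had a log2 difference above 0 (median 1.35). Sqle, the squalene epoxidase, was at 38.4, 27.0 and 24.5 FPKM with IL-4 and 3.97, 4.03, 4.78 and 4.03 FPKM without (2.55 ± 0.23, adjusted p = 5.1e-12). Replicate 2 was the highest IL-4 sample, and every IL-4 sample was several-fold above every control. Idi1, of which 17.7% of the 50-base stretches occur elsewhere, rose from 2.74, 3.11, 2.86 and 2.40 to 26.9, 16.4 and 13 FPKM, and Srebf2, the gene of SREBP2 itself, rose from 14.4, 13.1, 14.2 and 13.4 to 42.8, 32.9 and 32.7 FPKM.

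Genes of the opposite arm, cholesterol export under the sterol receptor LXR, did not move as one group: 2 of 17 tested members were called up and 5 down. Apoe, the lipid carrier apolipoprotein E, was at 1752, 2233 and 2474 FPKM with IL-4 and 6643, 4839, 5239.9 and 6388 FPKM without (-1.43 ± 0.18). Abca1, the pump that loads cholesterol onto lipoproteins, was at 11.1, 13.8 and 18.6 against 53.1, 59.7, 46.5 and 54.0 FPKM (-1.83 ± 0.22), and Mylip, a ubiquitin ligase, was at 9.50, 14.5 and 17.1 against 46.1, 42.0, 46.4 and 52.3 FPKM (-1.73 ± 0.38). All of these fell, with groups apart. The 2 members called up, Scd2 and Fasn, make fatty acids. Scd2, a desaturase, was at 74.3, 35.1 and 50.2 FPKM with IL-4 and 6.16, 6.05, 4.94 and 6.15 FPKM without.

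Genes of energy metabolism were called to different extents. In the respiratory chain and ATP synthase, 35 of 37 tested genes had a log2 difference above 0, with a median of 0.34, but only Atp5g1 and Cox7b were called up; Atp5b, the beta subunit of ATP synthase, was at 445, 445 and 464 FPKM with IL-4 and 236, 222, 254 and 259 FPKM without (0.89 ± 0.09). In fatty acid uptake and oxidation 3 of 32 were called up, Cd36, Pparg and Ppargc1b, and none down (median 0.24). Cd36, which takes up fatty acids and oxidized lipoprotein, was at 1419, 1587 and 1547 against 489, 637, 569.9 and 755 FPKM. In glycolysis and hypoxia 5 of 24 were called up and 1 down (median 0.36). The glucose carrier gene Slc2a1 was at 53.2, 52.0 and 52.9 against 16.8, 13.5, 18.8 and 23.2 FPKM and the phosphofructokinase gene Pfkp at 65.9, 52.2 and 50.6 against 16, 18.7, 17.4 and 17.0 FPKM. Vegfa was the member that fell.

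Genes for making ribosomes and folding proteins were among the increases. Of 29 tested genes of Myc and ribosome biogenesis, 12 were called up and 2 down, and 27 had a log2 difference above 0 (median 0.89). Gnl3 (nucleostemin) was at 28.8, 26.1 and 25.7 FPKM with IL-4 and 8.68, 9.24, 8.28 and 10.9 FPKM without, and Dkc1, which modifies ribosomal RNA, was at 9.35, 6.43 and 6.12 against 2.04, 2.30, 2.20 and 2.11 FPKM. The 2 members that fell, Mxd1 and Mxi1, encode repressors that compete with Myc. In the unfolded protein and integrated stress response 8 of 29 were called up and none down (median 0.61). Psat1, of serine synthesis, was at 47.5, 32.1 and 27.8 FPKM with IL-4 and 4.08, 4.64, 4.54 and 5.39 FPKM without (2.67 ± 0.30), and Asns, the asparagine synthetase, was at 21.5, 15.1 and 9.80 against 1.96, 3.10, 4.49 and 4.07 FPKM. Pdia4, a foldase of the endoplasmic reticulum, rose from 31.9, 31.9, 35.7 and 37.9 to 88.4, 91.1 and 100.3 FPKM.

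Of 40 tested genes of the cell cycle and DNA replication, 1 was called up and 10 were called down (median -0.43). Ccnb2, a cyclin of mitosis, was at 4.81, 3.83 and 3.39 FPKM with IL-4 and 14.9, 20.5, 13.9 and 11.4 FPKM without, and Birc5 (survivin) was at 8.87, 6.34 and 5.33 against 22, 30.7, 18.8 and 15 FPKM. Among the members that fell were also 2 inhibitors of the cycle, Cdkn1b at 8.84, 9.55 and 9.64 against 28.8, 33.8, 27.6 and 25.9 FPKM and Cdkn1c at 0.762, 1.22 and 1.52 against 4.54, 5.90, 5.55 and 6.53 FPKM, the latter with an antisense gene over 30.7% of its exon bases. Pcna, the sliding clamp of DNA replication, was the member that rose, from 105, 152, 109 and 116 to 259.8, 265 and 245 FPKM, and 19.1% of its 50-base stretches also occur elsewhere, most in a pseudogene.

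The type I interferon-stimulated genes were the list with the largest share of decreases among the 25. Of 42 tested members none was called up and 27 were called down, 40 had a log2 difference below 0, and the median was -1.40. These genes encode sensors and effectors against viruses, and interferon beta that macrophages make at rest maintains their basal level. Ifit3, which binds viral RNA complexes with its family, was at 3.80, 1.91 and 2.06 FPKM with IL-4 and 68.1, 56.7, 62.4 and 58.9 FPKM without (-4.16 ± 0.71, adjusted p = 6e-06), and I830012O16Rik was at 0.576, 0.333 and 0.433 against 16.8, 15.3, 15.3 and 14.6 FPKM. Cxcl10, a chemokine for T cells, was at 0.285, 0.159 and 0.296 against 9.59, 8.93, 11.8 and 11.0 FPKM (-3.18 ± 0.54). In each the groups lay more than 8 FPKM apart. Ifitm3, which blocks virus entry, fell from 711, 608, 624 and 479 to 199, 76.6 and 88.1 FPKM, with replicate 2 the highest IL-4 sample. Irf7, the factor that amplifies interferon production, was at 52.8, 22.7 and 18.7 FPKM with IL-4 and 239, 159.7, 146 and 106 FPKM without, and its call was lost when IL-4 replicate 3, IL-4 replicate 4 or control replicate 1 was left out. Ms4a4c, at 1.68, 0.820 and 0.882 against 22.6, 17.9, 14.9 and 10.1 FPKM, lost its call when any 1 sample but control replicate 4 was left out. Bst2 (tetherin) was at 222, 175 and 175 against 355, 249.7, 260.3 and 243 FPKM and was not called.

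Inflammatory cytokines and chemokines split. Of 24 tested members 3 were called up and 8 down. The 3 that rose encode chemokines for monocytes. Ccl2 was at 68.5, 39.4 and 38.4 FPKM with IL-4 and 3.36, 4.50, 2.16 and 2.38 FPKM without (3.58 ± 1.11), and Ccl7 was at 34.8, 16.4 and 16.5 against 0.756, 0.881, 0.233 and 0.197 FPKM (3.90 ± 1.36). Ccl8 was at 7.20, 10.4 and 19.5 against 1.04, 0.430, 0.666 and 1.08 FPKM. Their standard errors, from the fit over all 53 samples, were among the widest of the genes named, and none of the 3 was called by Tukey's test. The call of Ccl7 was also lost without IL-4 replicate 2. That of Ccl8 was lost when any 1 sample other than IL-4 replicate 2 or control replicate 4 was left out. In a fit of the 7 samples of this comparison alone, all 3 kept their calls. Pf4, the platelet factor that resting macrophages also make, fell from 223, 281, 279 and 266 to 104, 109.8 and 118 FPKM. Tgfb1, at 127, 126 and 120.0 FPKM with IL-4 and 135, 116, 138 and 122 FPKM without, was not called.

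Pattern recognition and inflammasome genes fell in 12 of 38 cases and rose in 1, Ripk2 (median -0.62). The list included Tlr2, Tlr7, Tlr9, Nod1 and Nlrp3 among those called down, whereas Tlr4, Pycard and Casp1 were not called. Clec4e, the receptor Mincle for fungal and mycobacterial lipids, was at 2.55, 2.83 and 3.50 FPKM with IL-4 and 33.0, 30.0, 35.7 and 24.4 FPKM without (-3.00 ± 0.11, adjusted p = 5.7e-23). Clec4n (dectin-2) was at 9.82, 21.0 and 37.3 against 148, 104, 179.9 and 222 FPKM, and Clec4d was at 213, 322 and 366 against 925, 853, 1009 and 960.4 FPKM. Replicate 2 was the lowest of the IL-4 samples for all 3 of these lectin genes, which lie side by side. Tlr13, a sensor of bacterial ribosomal RNA, was at 88.1, 84.0 and 84.9 against 142, 157, 136 and 127 FPKM, a difference under 2-fold.

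Genes of killing fell in 6 of 15 tested cases and rose in 1 (median -0.78). Cybb, the catalytic subunit of the phagocyte NADPH oxidase, was at 105, 93.3 and 105 FPKM with IL-4 and 301, 289.5, 276 and 275 FPKM without (-1.49 ± 0.11), while its partner Cyba was at 1252, 1214 and 1284 against 1163, 813, 1038 and 1094 FPKM and was not called. Lyz2, the main macrophage lysozyme gene and the highest of all loci in control, was at 4018, 4933 and 5444 against 21753, 18491, 23656 and 24241 FPKM, and its share of all FPKM was 0.938% to 1.27% with IL-4 and 4.66% to 5.59% without. It was not called in the fit over all 53 samples, in which it is listed at 0 in libraries of other groups, but it was called in a fit of these 7 samples alone (adjusted p = 2.52e-05). Lyz1, its close copy, fell from 35.9, 34.2, 40.9 and 43.2 to 11.9, 12.2 and 15.7 FPKM, and 16.1% of its 50-base stretches occur elsewhere, most in Lyz2. Lgals3, for galectin-3, was the member that rose, from 3530.3, 2933, 3687 and 3933 to 7603, 7762 and 7595 FPKM. In the lysosome 4 of 39 were called up, among them the pump subunit genes Atp6v0d2 and Atp6v0a1, the latter at 371, 359.8 and 380.0 against 78.9, 72.4, 83.5 and 104 FPKM, and Psap and Ctsc were called down. The protease gene Ctsd, at 3339.6, 3844 and 3946 against 4061, 3069.8, 4096 and 4284 FPKM, was not called. Of its 50-base stretches 32.4% also occur in other transcripts.

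Complement and Fc receptor genes were called down in 5 and up in 2 of 18 cases (median -0.71). The members that rose, Itgax and Itgb2, encode the chains of 1 integrin. Fcgr1, the high-affinity receptor for immunoglobulin G, was at 29.8, 19.3 and 16 FPKM with IL-4 and 133, 121, 114 and 81.2 FPKM without, and Fcgrt, which recycles immunoglobulin G, was at 29.1, 34.1 and 35.9 against 102, 79.9, 93.8 and 85.1 FPKM. Both fell in every IL-4 sample. C1qb was at 1492, 1616 and 1522 against 2757, 1974, 2691 and 2115 FPKM, under 2-fold. In antigen presentation by MHC class II 2 of 16 were called up, H2-DMa and Ifi30, and Cd86 was called down. H2-DMa, which helps to load peptide, was at 82, 76.7 and 82 against 42.2, 28.7, 39.8 and 40.9 FPKM, Cd86, a costimulator of T cells, at 4.36, 4.52 and 4.89 against 12.5, 13.9, 12.8 and 11.4 FPKM, and H2-Aa at 354, 346 and 432 against 462, 233, 427 and 391 FPKM without a call.

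Receptors for dying cells and lipids split, with 2 of 16 scavenger and efferocytosis genes called up and 5 down. Mertk, the kinase that senses dead cells, was at 4.60, 6.88 and 7.76 FPKM with IL-4 and 26.2, 25.0, 24.2 and 28.4 FPKM without (-1.89 ± 0.15), and Gas6, its bridging ligand, was at 25.1, 39.7 and 47.0 against 182, 140.1, 179 and 186 FPKM (-2.21 ± 0.26). Ligand and receptor both fell in all IL-4 samples. Cd68 was at 1243, 1315 and 1227 against 1096, 969, 1248 and 1215 FPKM and was not called. Among chemokine, purine and lipid receptors 3 of 31 were called up and 11 down (median -0.51). Ccr1, a chemokine receptor that rose, was at 33.3, 26.8 and 25.8 against 4.59, 5.17, 4.85 and 7.11 FPKM, and Lpar6, a receptor for lysophosphatidic acid, was at 13.7, 15.2 and 15.6 against 75.5, 90.9, 80.4 and 65.8 FPKM (-2.32 ± 0.10, adjusted p = 6.8e-21). Csf1r, the receptor of M-CSF, was at 609.8, 610.4 and 673 against 988, 816, 1033 and 1028 FPKM, under 2-fold.

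Of 17 iron and heme genes 1 was called up and 2 down, and 14 were not called (median -0.06). Tfrc, the transferrin receptor that brings iron in, was at 49.8, 109 and 133 FPKM with IL-4 and 15.2, 13.9, 18.3 and 30.2 FPKM without (2.22 ± 0.49). Slc40a1, the only known iron exporter, was at 12.2, 30.0 and 39.9 against 117, 123, 134 and 174 FPKM (-2.42 ± 0.91), and its call was lost without IL-4 replicate 2 (adjusted p = 0.114). The ferritin gene Fth1 was at 13543, 13595 and 14576 against 14384, 11361, 15584 and 17284 FPKM, and the groups overlapped. Eicosanoid genes were called up in 3 and down in 3 of 14 cases. Ptgs1, the constitutive cyclooxygenase, was at 42.5, 38.7 and 39.6 FPKM with IL-4 and 3.45, 3.14, 3.23 and 2.70 FPKM without (3.32 ± 0.20), and Tbxas1, the thromboxane synthase, was at 171, 166 and 159.9 against 61.8, 54.1, 65.9 and 72.0 FPKM. Hpgd, which breaks down prostaglandins, was at 1.71, 4.45 and 5.11 against 55.3, 46.3, 53.9 and 54.2 FPKM (-3.57 ± 0.51), and Alox5, which starts leukotriene synthesis, was at 1.06, 0.964 and 0.920 against 4.26, 3.78, 4.08 and 2.83 FPKM. Hpgds, which makes prostaglandin D2, also fell, from 64.5, 74.5, 64.8 and 59.5 to 30.6, 30.8 and 29.2 FPKM.

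Called loci also lay next to each other in the genome. Runs of at least 3 adjacent tested loci with the same call numbered 4 for loci called up (13 loci) and 13 for loci called down (45 loci); the shares that chance would give were not computed. The longest was the Oas cluster on chromosome 5 with 6 loci down, followed by 5 Ms4a loci on chromosome 19 (down), 4 Ifitm loci on chromosome 7 (down) and Ankrd55, Il6st, Il31ra and Ddx4 on chromosome 13 (up). Oas1a and Oas1g share 57.6% and 45.7% of their 50-base stretches with other transcripts, so these 2 calls are not separate measurements. For the 4 Ms4a genes checked these shares were 2.4% to 10.5%. Other runs included Rab3il1, Fads3 and Fads2 on chromosome 19 (up) and Leprel2, Gpr162 and Cd4 on chromosome 6 (down). These runs were named after the values were seen.

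At 6 h of IL-4 in WT (n = 4 against 4), 318 of the same loci were called up (2.97%) and 262 down (2.45%), in all 5.41%. Loci called up at both times numbered 141, which is 32.3% of those up at 24 h and 44.3% of those up at 6 h, and loci called down at both times numbered 112 (21.9% and 42.7%). Only 5 loci were called in opposite directions, Efr3b up at 24 h and Cd86, Dab2, Kmo and Ly86 down at 24 h, and they were named after their values were seen. Cd86 was at 39.8 ± 1.89 FPKM with IL-4 at 6 h (mean ± SD) and 11.3 ± 1.48 FPKM in control, so that it was high at 6 h and low at 24 h. The difference between the responses of both times was called for 318 loci upwards (2.97%) and 328 downwards (3.06%), in all 6.03%, and it shares the 24 h samples with the comparison above.

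**Figure D4:**
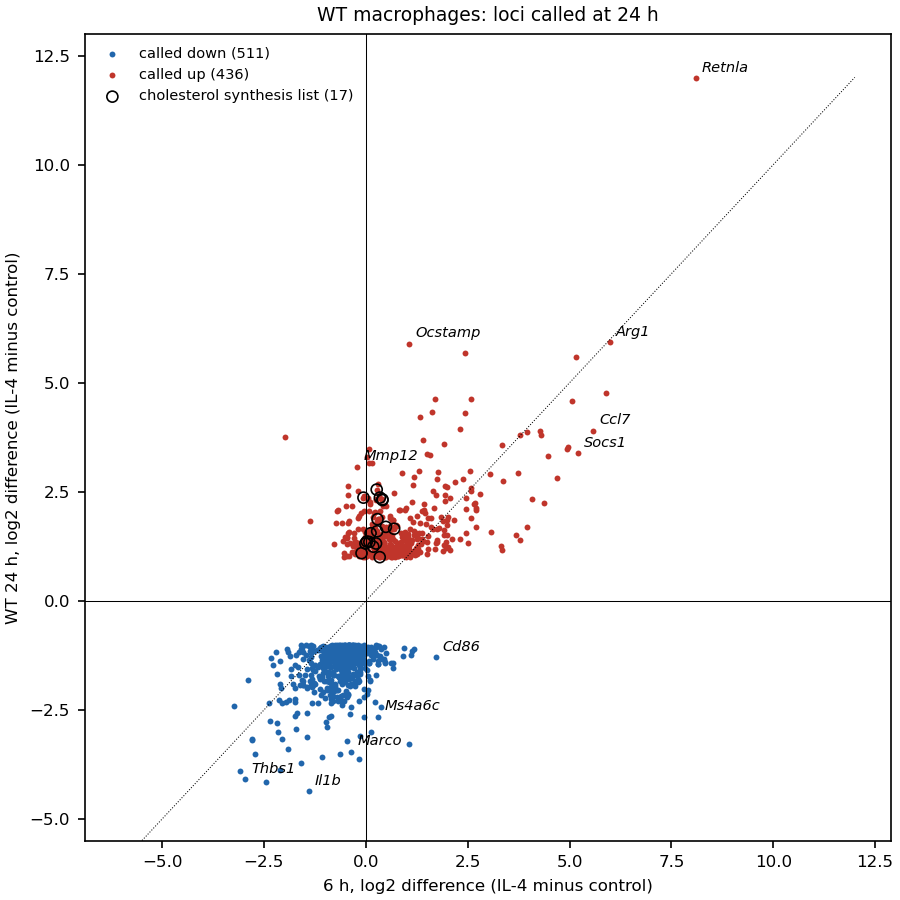
Log2 difference between IL-4 and control in WT at 6 h (x axis) and 24 h (y axis) for the loci called up (red, 436) and down (blue, 511) at 24 h; the dotted line marks equal differences and circles mark the 17 cholesterol synthesis genes called up. The circles stand near 0 on the 6 h axis, Socs1 and Ccl7 lie below the dotted line, Retnla, Ocstamp and Mmp12 lie above it, and Cd86 is up at 6 h and down at 24 h.

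Groups of genes differed in when they moved. None of 23 cholesterol synthesis genes was called at 6 h, where their median was 0.25, and 15 of 23 had a larger response at 24 h by the test of the difference. Sqle was at 15 ± 1.31 FPKM with IL-4 and 12.2 ± 0.924 FPKM in control at 6 h, and at 30.0 ± 7.42 and 4.20 ± 0.385 FPKM at 24 h, so the level in control was lower at 24 h and the level with IL-4 higher. The change of the controls between the times was not tested. Of 28 matrix and protease genes, 9 were also called for a more positive difference at 24 h and 1 for a more negative one. Mmp12 had a log2 difference of -0.21 ± 0.78 at 6 h and 3.08 ± 0.84 at 24 h (difference 3.29 ± 1.14, adjusted p = 0.0278), and Mt3, a metallothionein, had 0.07 ± 0.16 and 3.49 ± 0.18. Ocstamp went from 1.07 ± 0.14 to 5.90 ± 0.16 and Retnla from 8.10 ± 0.29 to 11.99 ± 0.31. The feedback inhibitors had smaller differences at 24 h than at 6 h, with Socs1 at 5.20 ± 0.26 and then 3.38 ± 0.29 (difference -1.82 ± 0.39, adjusted p = 0.00041) and Cish at 4.93 ± 0.14 and then 3.48 ± 0.15. Arg1, with 5.98 ± 0.16 and 5.93 ± 0.18, was not called for a difference between the times.

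The calls of decreases at both times can be set side by side. At 6 h 9 of 38 pattern recognition genes were already called down, and 5 of 42 interferon-stimulated genes (median -0.39), against 12 and 27 at 24 h. The test of the difference between the times called 3 of the 38 as more negative at 24 h and 1 as more positive, and 2 of the 42 interferon-stimulated genes as more negative. Vegfa and Fos had the larger decreases at 6 h, with log2 differences of -2.32 ± 0.14 and -1.84 ± 0.17 at 6 h and -1.31 ± 0.15 and -0.68 ± 0.18 at 24 h. Marco went from -0.36 ± 0.29 at 6 h to -3.46 ± 0.32 at 24 h (difference -3.09 ± 0.43, adjusted p = 5.4e-07) and Il1b from -1.41 ± 0.61 to -4.37 ± 0.66 (difference -2.96 ± 0.90, adjusted p = 0.0111). Ms4a6c, with 53.1% of its exon bases opposite another gene, went from 0.30 ± 0.32 to -2.65 ± 0.35, and Apoe from -0.40 ± 0.17 to -1.43 ± 0.18. Of these 4, none was called at 6 h.

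The dependence on STAT6 was read from Stat6-/- BMDMs at 24 h (2 with IL-4, 2 control). Stat6 itself was at 17.9 and 22.1 FPKM in the Stat6-/- controls and 17.5 and 21.6 FPKM with IL-4, lower than in every WT sample; which part of the transcript these reads come from was not checked. No locus was called between IL-4 and control in Stat6-/- (limma), with 29 loci at an unadjusted p below 0.05 and 0 of these past 2-fold. The 436 loci called up in WT had a median log2 difference of 0.054 in Stat6-/- (range -0.29 to 0.97), and the 511 called down had 0.003 (range -0.37 to 0.55). The difference between the responses of both genotypes was called for 767 loci (7.16%), 372 upwards (3.47%) and 395 downwards (3.69%). This test shares the WT samples with the comparison above. It was called in the same direction for 364 of the 436 loci called up in WT and 363 of the 511 called down. For the remaining loci it did not show a dependence on STAT6. Of 42 tested type I interferon-stimulated genes, 27 were called down in WT and 8 were called for this difference. Ifit2, Ifitm3, Irf7 and Ms4a4c were called down in WT but not for this difference.

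**Figure D5:**
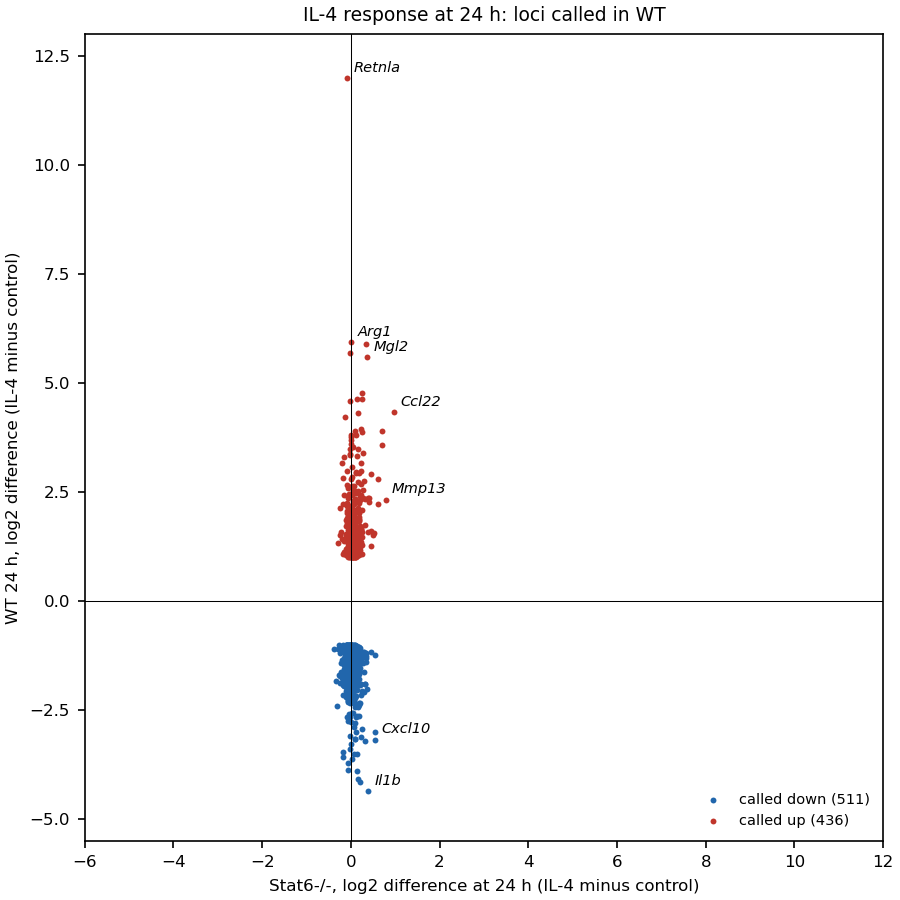
Log2 difference between IL-4 and control at 24 h in Stat6-/- (x axis, n = 2 against 2) and in WT (y axis, n = 3 against 4) for the loci called up (red, 436) and down (blue, 511) in WT. All points lie in a narrow band around 0 on the Stat6-/- axis, from -0.37 to 0.97, and Ccl22 lies farthest to the right.

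The Stat6-/- replicates stood far apart from each other. Replicates 1 and 2 differed at least 2-fold at 693 loci in control and at 660 loci with IL-4, against 17 to 127 loci for the 9 pairs of WT samples within a group. Itgax was at 37.6 and 2.32 FPKM in Stat6-/- controls 1 and 2 and at 37.4 and 3.08 FPKM with IL-4, and Mmp12 at 721 and 21.2 and 654 and 24.5 FPKM. Within a replicate number the values with and without IL-4 were close, and between numbers they were not. Ifit3 was at 21.6 and 116 FPKM in the Stat6-/- controls and 23.6 and 141 FPKM with IL-4 (difference between genotypes -4.35 ± 1.17, adjusted p = 0.00471), and Il1b at 5.75 and 50.6 and 9.25 and 57.2 FPKM (-4.76 ± 1.08, adjusted p = 0.00093). For Mmp12 the difference between genotypes was 3.05 ± 1.38 with an adjusted p of 0.095 and was not called.

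The loci called in WT with the largest differences of the same sign in Stat6-/- were 4 chemokine genes and a protease gene. Ccl22 was at 2.19 and 3.13 FPKM in Stat6-/- controls and 6.63 and 5.6 FPKM with IL-4 (log2 difference 0.97 ± 0.29, adjusted p = 1), higher in both replicates, and the genotypes still differed by 3.36 ± 0.36. Mmp13 was at 9.80 and 3.03 and 10.8 and 9.96 FPKM (log2 difference 0.79 ± 0.34). Ccl2, Ccl7 and Ccl8 had log2 differences of 0.70 ± 1.46, 0.71 ± 1.77 and 0.62 ± 1.49. Each of these 3 was also higher with IL-4 in both replicates, though only slightly for Ccl7 in replicate 1. None of the 5 was called in Stat6-/-. The standard errors of the last 3 exceeded their differences, in a fit that did not pair replicate numbers.

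Markers of cell types were read from lists for each type. All 7 macrophage markers exceeded 1 FPKM, with a summed level of 2621 to 2649 FPKM with IL-4 and 3575 to 4075 FPKM in control, and 4 of the 7 were called down. Emr1, the gene of the macrophage antigen F4/80, was at 478, 468 and 473 FPKM with IL-4 and 1201, 1076, 1105 and 992 FPKM without (-1.20 ± 0.14). The 7 neutrophil markers found sum to 221 to 322 FPKM with IL-4 and 446 to 620 FPKM in control, 3 of them called down, and their part in the results was not tested. Of 7 T and NK cell genes 6 were below 1 FPKM in all 7 samples, with Cd3e listed at 0 in every one, and Cd4, which myeloid cells can also express, fell from 12.0, 8.03, 11.7 and 15.5 to 0.738, 0.857 and 1.37 FPKM. Of the B cell genes 5 of 6, and of the dendritic cell genes 5 of 6, stayed below 1 FPKM in all 7 samples, as did 3 of 4 eosinophil genes (Epx, Il5ra and Ear6) and all genes listed for mast cells, erythroid cells and fibroblasts. Of 5 endothelial genes Cdh5, Kdr and Tie1 were below 1 FPKM, whereas Vwf was called up, from 2.17, 2.04, 2.35 and 3.17 to 12.8, 12.6 and 13.7 FPKM.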

How the data were processed

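RNA of BMDMs was sequenced from libraries of polyadenylated RNA made with a kit that does not mark strand. The authors aligned reads to mm10 with TopHat2 2.0.7 and estimated FPKM per gene with Cufflinks 2.0.2, per the submitters' processing notes, and deposited FPKM for each of 53 samples; the gene annotation and its version are not given in the sources used here. Cufflinks can list an abundant gene at 0 where its estimate fails, so values of 0 beside high values are given per sample.

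From the deposited FPKM, 4316 values under 1e-06 were set to 0, loci that reached 1 FPKM in any of the 7 WT samples at 24 h were kept, and log2(FPKM + 1) was fitted in limma 3.58.1 (R 4.3.3) with 1 mean for each of 18 groups over all 53 samples, with empirical Bayes moderation and 35 residual degrees of freedom before it. The pseudocount makes fold changes of low genes smaller than those of FPKM. Contrasts compared IL-4 with control in WT at 24 h, in Stat6-/- at 24 h and in WT at 6 h, and the difference of these differences. A locus was called at a Benjamini-Hochberg adjusted p (limma, over all tested loci) below 0.05 and a difference of at least 2-fold. The code was tested on simulated data. Named genes were the 4 markers and Stat6, the 15 largest called increases and decreases with groups apart, the 4 largest called changes and the 3 highest levels in each list, the 5 largest differences in each direction between genotypes and between times, and the 5 largest WT-like changes in Stat6-/-. Genes, lists and tests were chosen with earlier results of these data known.

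Reads per sample are unknown. The steps of low FPKM values gave a relative depth of 0.846 to 1.176 in the 7 samples (96.1% of 1378 sample pairs gave a ratio within 2% of 1 depth per sample). No column was left out for want of a sample. Replicate numbers were not taken to pair samples. RefSeq promoter windows (GRCm38.p6) and GENCODE transcripts were matched by symbol (10470 of 10675 tested symbols in GENCODE). Sequence of 50 bases shared with another gene, and exon overlap, were computed for named genes. Alternatives were another pseudocount, filters, scalings, samples, Tukey's test, the replicate number as a block, and each sample left out in turn.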

Additional observations from a re-analysis of the deposited data

Results flagged for a closer look

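Single samples stood apart from the others of their group by Dixon's criterion in 15 of 177 groups of 4 values examined, where chance gives about 8.8 (1 in 20). Controls were examined, since the 3 IL-4 samples are too few. Control replicate 4 stood apart for Arg1 (0 FPKM, others 0.0182 to 0.0217), Itgax (16.8, others 6.08 to 7.63), Lrrc32 (0.998, others 0.156 to 0.212), F7 (4.67, others 1.38 to 1.76), Mt3 (0.36, others 0), Mmp12 (286, others 94.6 to 124) and Cox7b (47.3, others 42.0 to 42.5). For Itgax, Lrrc32, F7, Mt3, Mmp12 and Cox7b, all called up with IL-4, its value lay above the other controls and below every IL-4 sample. Control replicate 3 stood apart for Sqle (4.77, others 3.97 to 4.03) and Scd2 (4.94, others 6.05 to 6.16). Control replicate 1 stood apart for Gpr162 (48.3, others 39.4 to 40.8) and Bst2 (355, others 243 to 260). Control replicate 2 stood apart for Cox4i1 (373, others 490 to 511), Gas6 (140, others 179 to 186), Hpgd (46.3, others 53.9 to 55.3) and the sum of all FPKM (396441.2, others 433666.7 to 440959.4).

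The response to IL-4 at 24 h differed between WT and Stat6-/- by the test of the difference (limma). The log2 difference of the responses was 12.07 for Retnla, 5.92 for Arg1, 5.69 for Ear11, 5.55 for Ocstamp and 5.22 for Mgl2. Among decreases it was -3.81 for Gpr162, -4.03 for Cd14, -4.24 for Thbs1, -4.35 for Ifit3 and -4.76 for Il1b. In WT, the response at 24 h differed from that at 6 h by 5.75 for Snora69, 4.83 for Ocstamp, 3.89 for Retnla, 3.42 for Mt3 and 3.29 for Mmp12, and by -3.09 for Marco, -3.02 for Cd86, -2.96 for Il1b, -2.95 for Ms4a6c and -2.95 for Tmem176b. Snora69, a small nucleolar RNA, was listed at 0 in all 4 controls and in IL-4 replicate 2 at 24 h and at 28.4 and 82.8 FPKM in the other IL-4 samples, and 1 of 4 controls at 6 h had 249 FPKM while the other 3 were listed at 0, so its value rests on 3 samples.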

How the results depend on the processing

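The count of 947 loci called in WT at 24 h was 1427 (581 up, 846 down) with a pseudocount of 0.1. It was between 827 (Tukey's test) and 989 (replicate number as a block) under the other settings. Leaving out samples in turn gave 902 to 1018. The p of Tukey's test was adjusted over the 16 group means of each locus and not over the loci, so its count follows another threshold. Calls were down in 54.0% of cases, in 48.9% after median-ratio scaling and in 48.3% after quantile normalization. Of the genes named, Psap ranged from -5.87 without IL-4 replicate 4 to 0.71 (adjusted p = 0.00522, limma) without IL-4 replicate 3, which lists it at 0. Of 120 named genes called, 98 kept their call in all alternatives. Tukey's test lost the calls of Ccl2, Ccl7, Ccl8, Ccnb2, Cd36, Cp, Ctsk, Fcgr1, Ifit2, Irf7, Irg1, Mmp12, Ms4a4c, Psap, Slc40a1 and Snora69. In the fit of only the groups compared, Psap was the only named gene that lost its call. Atp5g1, Calr, Cox7b, H2-DMa, Ifi30 and Pcna lost theirs under quantile normalization or without 1 sample, and Lyz2, C1qc, Alox5ap and Cd74 gained one in at least 1.

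No locus was called in Stat6-/- under the settings run, which did not include Tukey's test. With the replicate number as a block 1 locus had an adjusted p below 0.05 and 100 had an unadjusted p below 0.05 (limma). The count for the difference between genotypes ran from 466 without Stat6-/- control replicate 1 to 1344 without Stat6-/- control replicate 2, and was 1285 without Stat6-/- IL-4 replicate 1. The lone sample left in these fits is assumed to vary like the other groups. The count for the difference between 24 h and 6 h was 596 to 666 with samples left out.

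In WT at 24 h, deviations of same-numbered replicates correlated at 0.27, 0.08 and 0.21 for numbers 2, 3 and 4. Replicates of different numbers correlated at -0.29 to 0.16, the highest being control replicate 3 with IL-4 replicate 4. The labels do not say whether the numbers mark pairs, and the main fit did not pair them. The block gave 989 calls in WT at 24 h, 974 for the difference between genotypes and 751 for that between times. In Stat6-/- the difference between replicates 1 and 2 correlated at 0.91 between control and IL-4, over 2 pairs only. Depth in reads is unknown, so no floor for a value of 0 is given, and values near 0 rest on few reads.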
